A study of Homo sapiens with 28 samples.

Results

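The long non-coding RNAs (lncRNAs) known from prostate cancer that were followed by symbol through RNA sequencing of LNCaP cells were PCGEM1, PCAT1, PCAT14, PCA3, ARLNC1, DRAIC, PART1, NEAT1 and MALAT1, all 9 of which were found among the 61815 human genes of the count table. LNCaP is an androgen-responsive line grown from a lymph node metastasis of prostate cancer, and every group was 1 line kept in charcoal-stripped serum, which is poor in androgen, for 72 h before treatment. In the first experiment the cells received DMSO vehicle, Senexin B (1 µM by the sample labels, while the study's text gives a different dose), 0.1 nM R1881 or R1881 plus Senexin B for 24 h (n = 3 each), and in the second they received vehicle, 500 nM SNX631, 1 nM R1881 or R1881 plus SNX631 for 72 h (n = 4 each). R1881 is a synthetic androgen, and Senexin B and SNX631 inhibit CDK8 and CDK19, the Mediator kinases. Time, R1881 dose and inhibitor differed between the experiments at once and cannot be told apart, so the inhibitors are given side by side and not compared. The study described the libraries of a group as biological replicates.

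Androgens act on prostate cells through a hormone-activated transcription factor, and Mediator is the complex that links transcription factors to RNA polymerase II, with CDK8 and CDK19 as its kinase subunits. PCGEM1, PCAT14, ARLNC1, PART1 and PCA3 are known for high expression in prostate tissue or prostate tumors. PCAT1 lies upstream of MYC, and DRAIC is known as an androgen-repressed lncRNA with reported growth-inhibiting roles. NEAT1 is the scaffold of paraspeckles, MALAT1 is a nuclear speckle RNA, and both are abundant in many cell types.

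Total counts ranged from 9846595 to 33809419 per library, and the library with the highest total, vehicle 24 h replicate 3, stood well above the next, at 15248512. The 6 luminal prostate markers were high in all libraries (summed level 2859 to 4681 CPM, that is counts relative to library sizes scaled by TMM), and of 8 markers of other cell types KRT5 was at 0 in every library, 6 stayed at or below 0.449 CPM and COL1A1 lay between 7.47 and 30.6 CPM. The summed level of these 8 markers was 22.6 to 24.9 CPM in vehicle, 14.4 to 15.8 with R1881, 10.5 to 12.4 with Senexin B and 7.57 to 9.01 with both at 24 h. At 72 h it was 27.4 to 30.6 CPM in vehicle, 16.8 to 24.3 with R1881, 17.98 to 21.2 with SNX631 and 10.6 to 12.9 with both, and its part in the results was not tested. KLK3, the gene of prostate-specific antigen, rose with R1881 at 24 h (log2 fold change 6.15 ± 0.14 SE, edgeR false discovery rate, FDR, 4.71e-33) and at 72 h (6.57 ± 0.18, edgeR FDR 5.31e-39). Whether fewer cells held a transcript or each cell held less of it cannot be told apart in bulk RNA.

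PCGEM1 and ARLNC1 were below 1 CPM in all 8 groups, with highest group means of 0.21 CPM (R1881, 24 h) and 0.498 CPM (R1881, 72 h). PCAT14 exceeded 1 CPM only in the R1881 72 h and R1881 plus SNX631 72 h groups, at 1.17 ± 0.21 and 1.02 ± 0.23 CPM (mean ± SD). The other 6 lncRNAs were above 1 CPM in at least 1 group and entered the test of both experiments, and PCAT14 entered that of the second, where it passed the filter on low counts only through the R1881 groups, so that its entry there already required a difference and it is left out of the counts of R1881 calls. A gene was called when its edgeR FDR was under 0.01 and its fold change over 1.5.

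R1881 against vehicle gave 3 calls among the 6 lncRNAs tested at 24 h (1 higher and 2 lower), beside 19% of all genes tested, and 3 among the same 6 at 72 h (1 higher and 2 lower), beside 19.8% of all genes. With the inhibitor present in both arms, R1881 gave 3 calls among 6 under Senexin B, beside 18.9% of all genes, and 4 among 6 under SNX631, beside 22% of all genes. The inhibitors alone gave no call among the lncRNAs by edgeR or DESeq2: 0 of 6 for Senexin B, beside 3.79% of all genes, and 0 of 7 for SNX631, beside 4.77%, with 3 lncRNAs at an unadjusted p under 0.05 in each. An edgeR FDR under 0.05, which is stricter than that p, was reached by 35.8% and 36.5% of all genes. On top of R1881, Senexin B gave 1 call (DRAIC, lower), beside 3.12% of all genes, and SNX631 gave 1 (PCAT1, higher), beside 4.12%. With so few lncRNAs, 1 call more or less moves these shares widely.

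**Figure D1:**
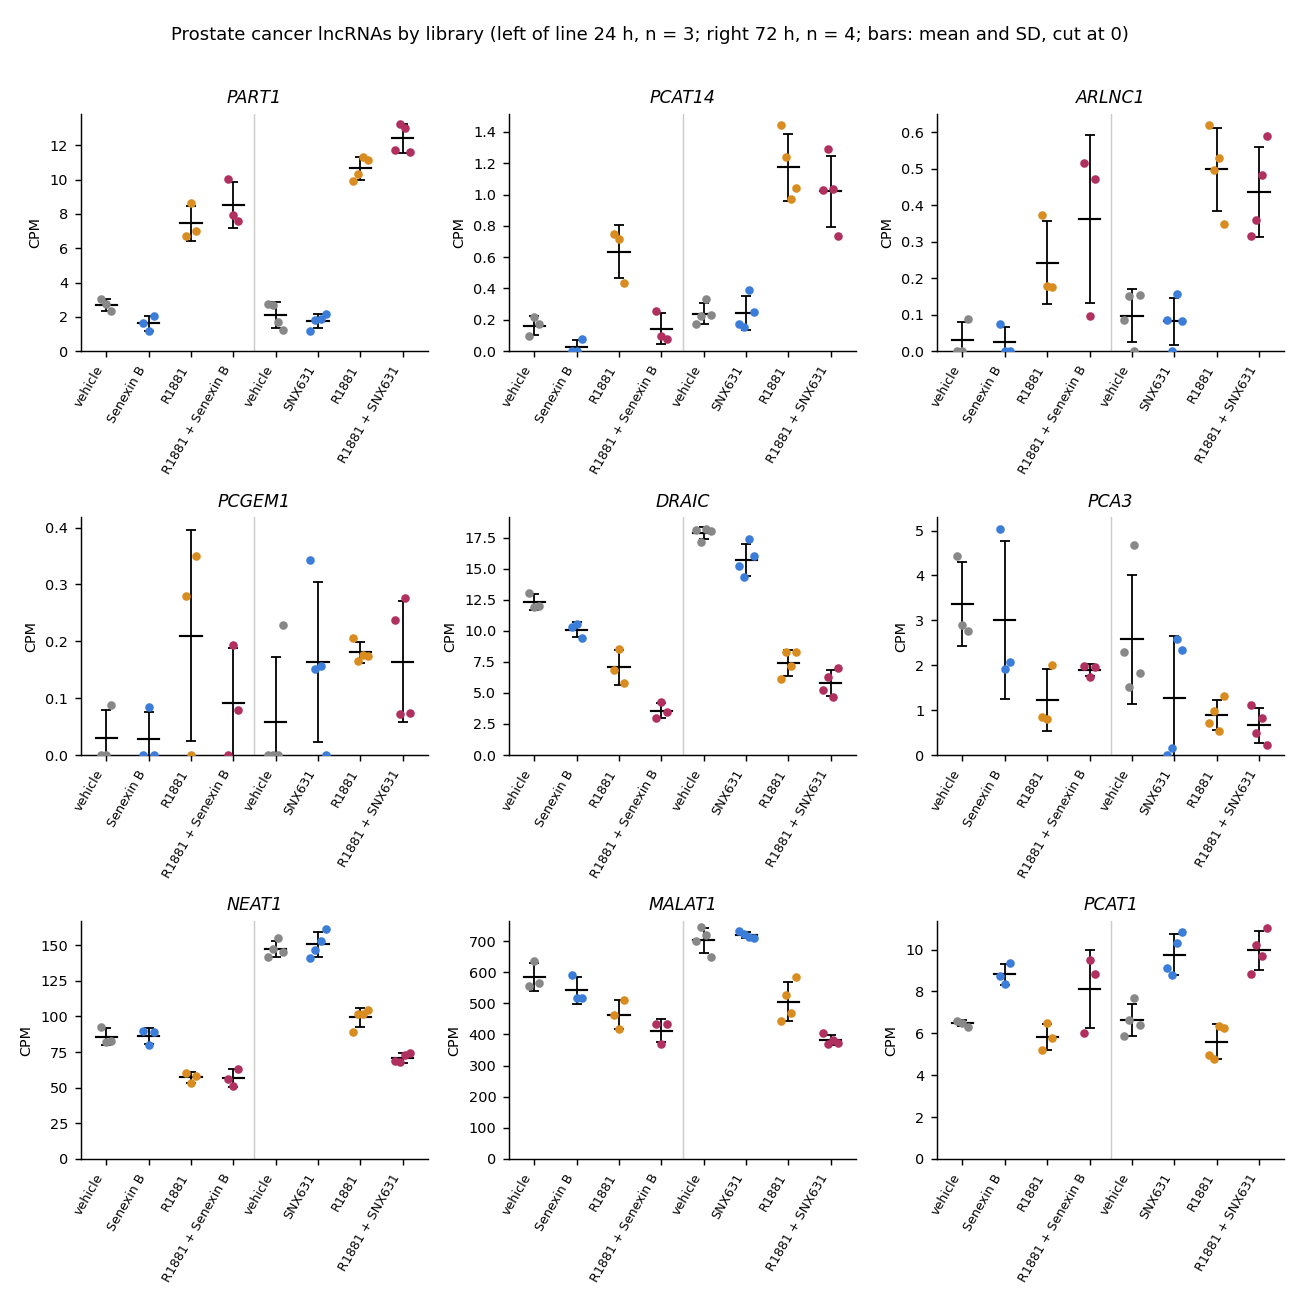
Level of each lncRNA in CPM (vertical axes, each with its own scale) in the 28 libraries by treatment group, with points for libraries and bars for the group mean and SD, cut at 0. PART1 was higher in every R1881 library than in every library without it, DRAIC and NEAT1 were lower with R1881 within each experiment, and PCGEM1 and ARLNC1 stayed under 1 CPM throughout.

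PART1 was the tested lncRNA that rose with R1881 in both experiments. PART1 (ENSG00000152931.9; GENCODE 29 on GRCh38, chromosome 5, 60487713 to 60547657, plus strand) is a long intergenic RNA that overlaps PDE4D, a phosphodiesterase gene, on the opposite strand by 34408 bases. At 24 h its levels were 3.02, 2.75 and 2.34 CPM in vehicle and 6.71, 8.63 and 7.01 CPM with R1881. The groups did not overlap, and R1881 gave a 2.91-fold rise (log2 1.54 ± 0.17, edgeR FDR 1.10e-09). Under Senexin B the levels went from 1.63, 1.17 and 2.07 CPM to 10.0, 7.95 and 7.56 CPM with R1881 (log2 2.36 ± 0.22, edgeR FDR 1.87e-12). The groups were again apart, and the Senexin B libraries without R1881 all lay below the vehicle libraries (log2 −0.63 ± 0.23) without a call (edgeR FDR 0.0300).

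At 72 h PART1 was at 2.73, 2.71, 1.67 and 1.22 CPM in vehicle and at 9.90, 10.3, 11.3 and 11.1 CPM with R1881, a 5.07-fold rise (log2 2.34 ± 0.17, edgeR FDR 9.54e-17). With SNX631 it was at 1.203, 1.82, 1.88 and 2.17 CPM, and with both agents at 11.7, 13.2, 13.02 and 11.6 CPM (log2 2.77 ± 0.17, edgeR FDR 2.17e-19). No R1881 library overlapped a library without R1881. The rise was larger by 0.82 ± 0.27 under Senexin B (edgeR FDR 0.0766) and by 0.43 ± 0.24 under SNX631 (edgeR FDR 0.267), and neither interaction was called.

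Promoter windows of PART1 and some of the other lncRNAs, from 250 bases before to 50 after the RefSeq start (GRCh38.p14), were searched on both strands. The motifs were the androgen response element (the hexamer AGAACA and its inverse, 3 bases apart), a single hexamer and the FOXA1 core TGTTTAC. Among 35116 promoter windows of that length, the full element occurred in 1, the hexamer in 14.8% and the FOXA1 core in 3.42%. RefSeq windows were at hand for PCGEM1, PART1, PCA3, MALAT1 and DRAIC, and none of them held the full element or the FOXA1 core. The windows of the lncRNA called higher and the lncRNA called lower in all R1881 comparisons, PART1 and DRAIC, are shown first because their levels moved most steadily, and neither holds a match. The 1 of 2 MALAT1 windows that holds a hexamer, on the minus strand and in capitals, with its first base 41 bases before the start, is shown beside them.
PART1, chr5:60487682-60487981, plus strand: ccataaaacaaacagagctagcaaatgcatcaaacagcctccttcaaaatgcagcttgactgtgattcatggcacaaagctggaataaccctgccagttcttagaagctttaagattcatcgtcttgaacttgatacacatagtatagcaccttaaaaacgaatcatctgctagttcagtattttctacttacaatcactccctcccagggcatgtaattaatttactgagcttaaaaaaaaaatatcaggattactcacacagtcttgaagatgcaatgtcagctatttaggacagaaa
DRAIC, chr15:69561470-69561769, plus strand: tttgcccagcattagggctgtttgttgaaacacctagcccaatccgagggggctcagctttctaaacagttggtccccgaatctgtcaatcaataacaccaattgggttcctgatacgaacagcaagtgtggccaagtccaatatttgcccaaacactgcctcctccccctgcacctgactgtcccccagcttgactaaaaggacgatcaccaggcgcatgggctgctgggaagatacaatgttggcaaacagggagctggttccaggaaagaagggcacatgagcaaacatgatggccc
MALAT1, chr11:65498795-65499094, plus strand: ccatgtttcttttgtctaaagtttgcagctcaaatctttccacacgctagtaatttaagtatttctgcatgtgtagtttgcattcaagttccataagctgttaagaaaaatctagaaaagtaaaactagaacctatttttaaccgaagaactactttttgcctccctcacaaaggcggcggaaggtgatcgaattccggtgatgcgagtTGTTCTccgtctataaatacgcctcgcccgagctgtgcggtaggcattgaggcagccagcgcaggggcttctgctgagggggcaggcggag
PCGEM1 also held 1 hexamer on the minus strand, 191 bases before its start. The absence of a match says only that these letters are not in these windows. For DRAIC and PCA3 the RefSeq windows lie inside the GENCODE gene spans given in this text and do not cover the starts of those spans. The MALAT1 window shown also lies inside its gene span.

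PDE4D, which overlaps PART1 on the other strand, was lower with R1881 at 72 h (log2 −1.16 ± 0.10, edgeR FDR 4.89e-13) and was not called at 24 h (−0.38 ± 0.13, FDR 0.0156). DEPDC1B, the nearest protein-coding gene after PART1 at 49255 bases, rose with R1881 in both experiments (log2 3.00 ± 0.16, edgeR FDR 1.77e-18, and 1.89 ± 0.10, edgeR FDR 3.06e-20). It was also called higher with Senexin B alone (0.68 ± 0.20, edgeR FDR 0.00807) and SNX631 alone (0.93 ± 0.11, edgeR FDR 2.98e-09). A short annotated RNA inside PART1 on the same strand (ENSG00000275634) rose by 1.62 and 2.19, and since it overlaps PART1, the same reads may count for both. Fractional counts were present for PART1 in 16 of 28 libraries.

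PCAT14 (chromosome 22, 23536881 to 23547797, plus strand) followed PART1 in direction at a low level. At 72 h it was at 0.170, 0.226, 0.334 and 0.229 CPM in vehicle, from 2 to 4 counts per library, and at 1.44, 1.24, 0.971 and 1.04 CPM with R1881, from 11 to 15 counts. The R1881 libraries were the higher ones without overlap (4.66-fold). Since the filter let PCAT14 in through these groups, its test was taken from the fit without the filter, which gave log2 2.24 ± 0.48 (edgeR FDR 5.18e-07). With SNX631 it was at 0.172, 0.151, 0.391 and 0.250 CPM and with both agents at 1.03, 1.29, 1.03 and 0.736 CPM (log2 2.04 ± 0.48 without the filter, edgeR FDR 4.45e-06). The groups were apart here as well, and SNX631 on top of R1881 gave −0.18 ± 0.30 without the filter (edgeR FDR 0.797).

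At 24 h PCAT14 was not tested, with 1, 3 and 6 counts in vehicle, 8, 8 and 5 with R1881, 0, 0 and 1 with Senexin B and 3, 1 and 1 with both. In CPM the R1881 libraries (0.746, 0.719 and 0.438) lay above those of the other 3 groups, of which the highest was 0.257. Differences of this size rest on a few counts, and without the filter on low counts none of the PCAT14 comparisons at 24 h was called (lowest edgeR FDR 0.0119, R1881 against vehicle). 

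ARLNC1 (chromosome 16, 80828735 to 80892595, minus strand), known as an androgen-regulated lncRNA, held at most 7.67 counts in any library. At 72 h its deposited counts were 0.83, 1.5, 0.5 and 1.5 in vehicle, 6, 6, 5.5 and 4.5 with R1881, 1, 0.5, 1.5 and 1 with SNX631 and 4, 5, 7 and 7.67 with both. Every R1881 library was above every library without R1881. Without the filter on low counts ARLNC1 was called for R1881 at 72 h (log2 2.20 ± 0.77, edgeR FDR 0.00284) and under SNX631 (2.31 ± 0.83, edgeR FDR 0.00224). It was also called for R1881 under Senexin B (3.435 ± 1.713, edgeR FDR 0.00859). There the deposited counts were 1, 0 and 0.5 with Senexin B and 5.5, 1 and 6.5 with both, so the value is imprecise. For R1881 against vehicle at 24 h ARLNC1 was not called (2.08 ± 1.16, edgeR FDR 0.104). Its nearest protein-coding neighbours on both sides, CDYL2 and CMC2, both rose with R1881 in both experiments (CDYL2 by 0.99 and 1.23, CMC2 by 1.37 and 1.26 on the log2 scale).

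PCGEM1 (chromosome 2, 192749845 to 192776899, plus strand) held from 0 to 4.5 counts per library and 44 in all. It was at 0 in 1 of 3 R1881 libraries at 24 h and at 2, 2, 2.5 and 2 counts in the R1881 libraries at 72 h, against 0.5, 0, 0 and 3 in vehicle. A difference was not detectable at this depth, and without the filter the lowest edgeR FDR was 0.210. TMEFF2, its nearest protein-coding gene on one side at 554136 bases, rose with R1881 by 2.04 ± 0.06 at 24 h and 1.51 ± 0.06 at 72 h. It also rose with Senexin B alone (1.22 ± 0.06, edgeR FDR 3.20e-16) and SNX631 alone (1.26 ± 0.06, edgeR FDR 2.18e-19). Under Senexin B its R1881 rise was 0.91, and under SNX631 it was 0.38 without a call.

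**Figure D2:**
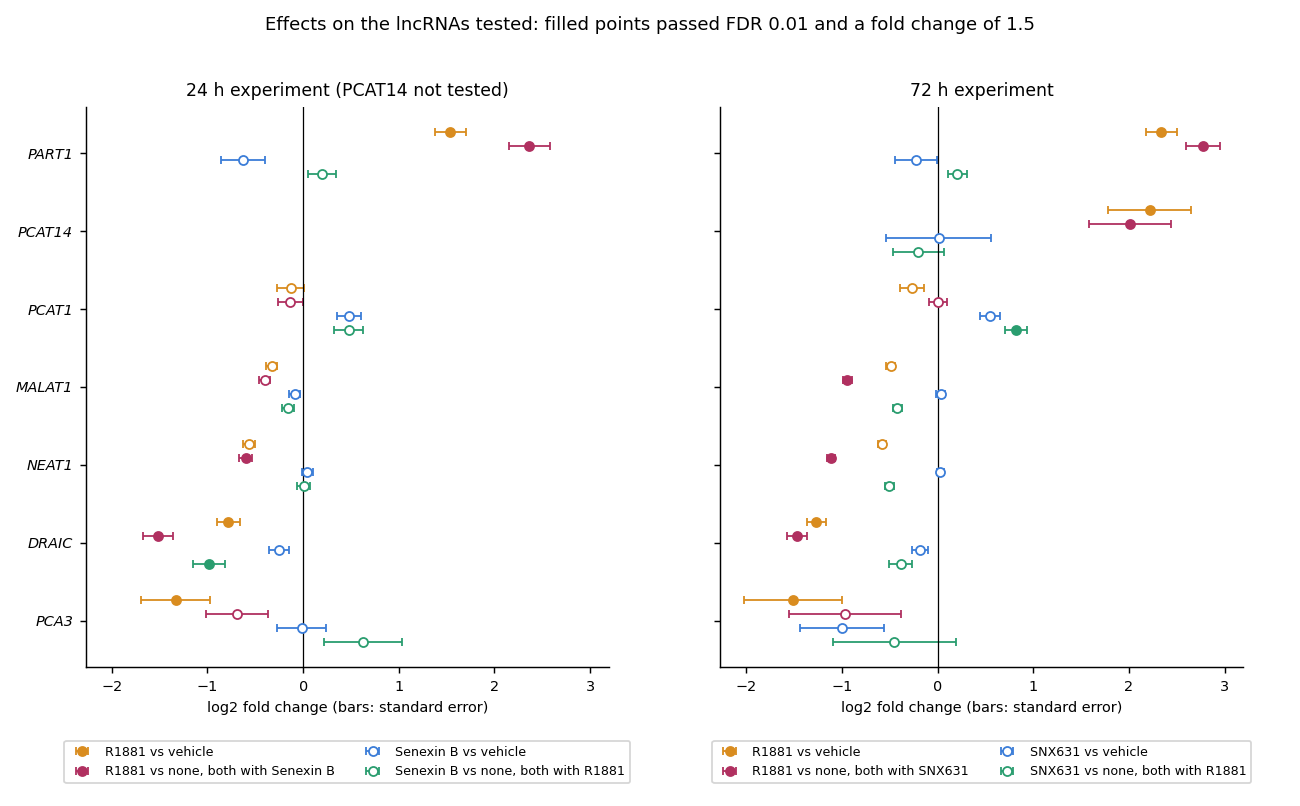
Log2 fold changes (horizontal axis) with standard errors of the 7 lncRNAs tested, at 24 h on the left and at 72 h on the right, 1 colour per comparison and filled points for those past both limits, PCAT14 having entered through its R1881 groups. PART1 and PCAT14 lay to the right of 0 and DRAIC, NEAT1, MALAT1 and PCA3 to the left in the R1881 comparisons, while PCAT1 lay to the right in the inhibitor comparisons.

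DRAIC, the lncRNA that fell with R1881 in all 4 R1881 comparisons with a call, lies on chromosome 15 (69463026 to 69843120, plus strand, as a long intergenic RNA). At 24 h it was at 13.01, 11.9 and 11.97 CPM in vehicle, 6.80, 8.54 and 5.78 CPM with R1881, 10.3, 10.5 and 9.42 CPM with Senexin B and 3.00, 4.27 and 3.46 CPM with both. The Senexin B libraries were all below vehicle without a call (log2 −0.25 ± 0.10, edgeR FDR 0.0572), the R1881 libraries were below both, and the libraries with both agents were below all others. R1881 gave −0.78 ± 0.12 on the log2 scale without (edgeR FDR 7.40e-07) and −1.51 ± 0.16 with Senexin B (edgeR FDR 1.60e-10), and Senexin B on top of R1881 gave −0.98 ± 0.17 (edgeR FDR 1.99e-05). The interaction of −0.73 ± 0.20 missed the limit (edgeR FDR 0.0246). Without R1881 replicate 3, the lowest of its group, it was −0.87 and passed (edgeR FDR 0.007838). Against a null of a 1.5-fold change, rather than of no change, at an FDR limit of 0.05, neither the R1881 effect at 24 h nor the Senexin B effect on top of R1881 was called (edgeR FDR 0.107 and 0.276).

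At 72 h DRAIC was at 18.1, 17.1, 18.2 and 18.01 CPM in vehicle, and at 6.08, 8.26, 7.15 and 8.26 CPM with R1881. The groups were far apart, a 2.40-fold fall (log2 −1.27 ± 0.10, edgeR FDR 2.39e-14). SNX631 gave 15.2, 14.3, 17.4 and 15.99 CPM alone and 5.22, 6.30, 4.68 and 6.99 CPM with R1881 (log2 −1.47 ± 0.10 for R1881 under SNX631, edgeR FDR 7.55e-16). SNX631 on top of R1881 gave −0.38 ± 0.12, past the FDR limit but under the fold limit (edgeR FDR 0.00856), with libraries that overlapped. TLE3, a transcriptional corepressor and the nearest protein-coding gene after DRAIC at 204670 bases, also fell with R1881 in both experiments (log2 −1.49 ± 0.04, edgeR FDR 2.49e-25, and −1.56 ± 0.04, edgeR FDR 3.41e-30). Neither inhibitor alone moved TLE3 past the limits (−0.05 and 0.03).

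PCA3, a prostate cancer marker RNA used in urine tests, lies within PRUNE2 on the opposite strand (chromosome 9, 76691980 to 76863307, plus strand), a gene with far higher counts. At 24 h it was at 4.43, 2.89 and 2.75 CPM in vehicle, at 0.839, 0.809 and 2.01 CPM with R1881, at 5.04, 1.92 and 2.07 CPM with Senexin B and at 1.97, 1.75 and 1.97 CPM with both. The R1881 libraries lay below the vehicle libraries, and 1 Senexin B library stood far above the rest of its group. R1881 gave −1.33 ± 0.36 (edgeR FDR 0.000944), and under Senexin B −0.69 ± 0.32 without a call (edgeR FDR 0.0614). Without R1881 24 h replicate 1 the first value was −1.13 and not called (edgeR FDR 0.01003), and with all 28 libraries in 1 fit it was not called either (edgeR FDR 0.0137). Without the filter on low counts the value under Senexin B was called (−0.70 ± 0.23, edgeR FDR 0.00886), at nearly the same value with a smaller standard error and with libraries that overlapped.

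At 72 h PCA3 was at 2.30, 1.51, 4.68 and 1.83 CPM in vehicle, at 0.722, 0.991, 0.530 and 1.304 CPM with R1881, at 0, 0.151, 2.58 and 2.33 CPM with SNX631 and at 1.11, 0.501, 0.827 and 0.221 CPM with both. The R1881 libraries lay below the vehicle libraries (log2 −1.51 ± 0.51, edgeR FDR 0.00620), while the SNX631 libraries fell into 2 near 0 and 2 at vehicle levels. The R1881 call was lost without vehicle replicate 3 (−1.07, edgeR FDR 0.0677), without R1881 replicate 1, 2 or 3 (edgeR FDR 0.0155, 0.0127 and 0.0270) and with DESeq2 (adjusted p 0.126). SNX631 alone gave −0.999 ± 0.441 (edgeR FDR 0.0652), and −1.63 with a call (edgeR FDR 0.00913) without SNX631 replicate 3. R1881 under SNX631 gave −0.96 ± 0.59 (edgeR FDR 0.135), and −1.92 with a call (edgeR FDR 0.000128) when SNX631 replicates 1 and 2 were left out, a choice made after their values were seen. Without the filter on low counts both were called, SNX631 alone at −0.99 ± 0.23 (edgeR FDR 0.000160) and R1881 under SNX631 at −0.94 ± 0.31 (edgeR FDR 0.00670). These values were close to those with the filter, and it was the standard errors that were smaller. The libraries overlapped in both comparisons.

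A pair of transcripts on the strand opposite to abundant genes, chosen after their values were seen, stood apart in the same libraries. TALAM1, the antisense transcript of MALAT1, was at 0.172, 0.757, 6.49 and 7.75 CPM in the 4 SNX631 libraries at 72 h, and at 11.4, 4.67, 18.5 and 7.71 CPM in vehicle. It was at 1.44, 0.991, 0.441 and 0 CPM with R1881 and from 0.0736 to 0.143 CPM with both agents. As with PCA3, SNX631 replicates 1 and 2 were lowest in their group, vehicle replicate 3 was highest in its own, and Senexin B replicate 1 was highest at 24 h (10.2 against 2.34 and 3.06 CPM).

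BEST1, which overlaps the ferritin gene FTH1 on the other strand by 5798 bases, was at 6.79, 6.06, 13.1 and 17.3 CPM in the SNX631 libraries and at 22.7, 13.04, 34.1 and 18.5 CPM in vehicle at 72 h. It was between 1.91 and 3.82 CPM with R1881 at 72 h. Once group means were removed, the log2 CPM of PCA3 and TALAM1 had r = 0.725 over the 28 libraries, and those of BEST1 and TALAM1 r = 0.823, as a description of libraries that share treatments and cells. Since TALAM1 and BEST1 were chosen after their values were seen, high values of r follow in part from the choice. For PART1, DRAIC, PCAT1, NEAT1 and MALAT1 the same r with TALAM1 was 0.216, 0.00259, 0.0565, 0.266 and −0.204. As a share of the sense gene, PCA3 was at most 0.329% of PRUNE2 and TALAM1 at most 2.57% of MALAT1 in CPM. The strand setting of the counting was not given in the sources used here, and the part of strand in the PCA3 values was not tested.

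PRUNE2 itself fell with R1881 in both experiments (log2 −0.98 ± 0.06, edgeR FDR 2.10e-15, and −0.86 ± 0.04, edgeR FDR 2.93e-20). GCNT1, a glycosyltransferase gene 40777 bases before PCA3, rose with Senexin B (log2 1.86 ± 0.04, edgeR FDR 1.02e-26) and with SNX631 (1.65 ± 0.04, edgeR FDR 3.01e-30), and with R1881 at 72 h (0.67 ± 0.04, edgeR FDR 1.73e-17).

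**Figure D3:**
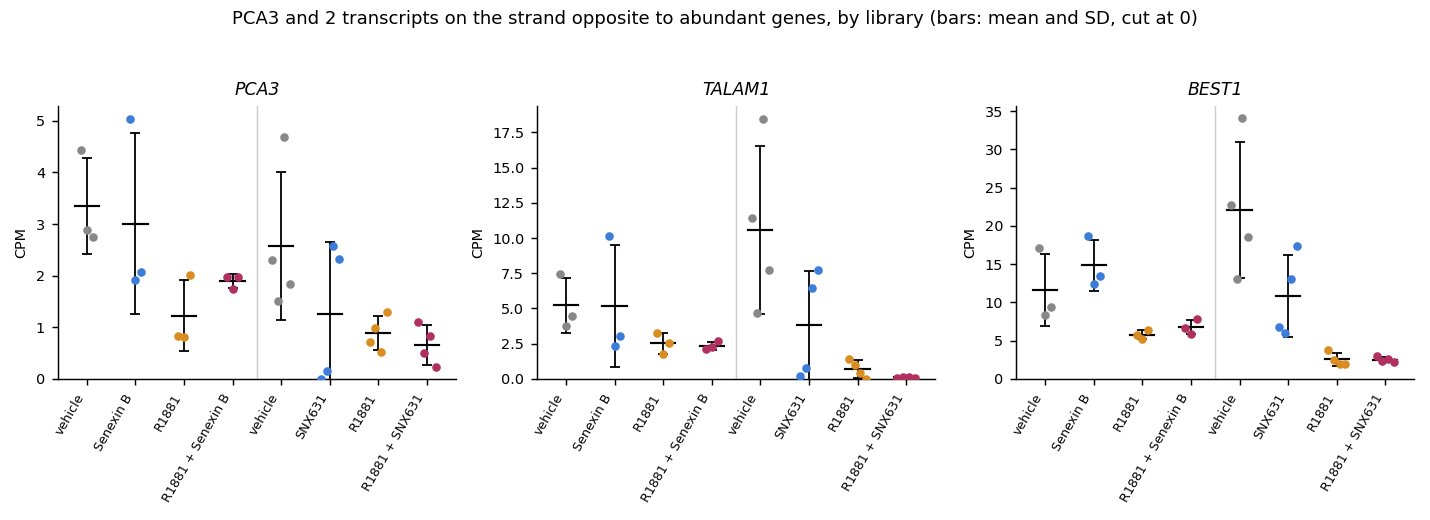
Levels in CPM (vertical axes) of PCA3, TALAM1 and BEST1 by library and group, with bars for the mean and SD, cut at 0. SNX631 replicates 1 and 2 at 72 h were the lowest of their group in all 3 panels, and vehicle replicate 3 at 72 h was the highest.

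NEAT1 and MALAT1, neighbours on chromosome 11 (65422774 to 65445540 and 65497688 to 65506516, both on the plus strand), were lower in every R1881 library than in every library without R1881 of the same experiment. For R1881 against vehicle neither passed both limits, while under an inhibitor NEAT1 passed in both experiments and MALAT1 with SNX631. At 24 h NEAT1 was at 92.6, 82.3 and 82.7 CPM in vehicle, 60.02, 53.1 and 58.5 CPM with R1881, 89.8, 79.7 and 89.0 CPM with Senexin B and 56.4, 51.1 and 63.4 CPM with both. All libraries with R1881 were below all without it, and the Senexin B libraries overlapped their partners without it in both pairs. R1881 gave −0.56 ± 0.06 (edgeR FDR 3.29e-09), just under the fold limit, and −0.60 ± 0.07 under Senexin B (edgeR FDR 1.39e-09), just over it. The second call was lost without Senexin B replicate 1 or R1881 plus Senexin B replicate 2 (−0.57 and −0.53), and the first was gained without vehicle replicate 3 or R1881 replicate 1 (−0.61 and −0.59) or with scaling by library totals alone (−0.64). The interaction was −0.04 ± 0.09 (edgeR FDR 0.902).

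At 72 h NEAT1 was at 142, 147, 155 and 145 CPM in vehicle and at 141, 147, 153 and 161 CPM with SNX631, with full overlap (log2 0.03 ± 0.04, edgeR FDR 0.580). With R1881 it was at 89.0, 102, 101 and 105 CPM, and with R1881 plus SNX631 at 68.4, 67.7, 73.0 and 74.6 CPM. The libraries with both agents lay below the R1881 libraries, and these below all others. R1881 gave −0.58 ± 0.04 without (edgeR FDR 6.58e-15) and −1.11 ± 0.04 with SNX631 (edgeR FDR 1.73e-23), of which the second was called. Leaving out 1 of 6 libraries (vehicle replicate 1, 2 or 4, or R1881 replicate 2, 3 or 4) brought the first over the fold limit, at −0.587 to −0.607, and scaling by library totals alone brought it to −0.68. SNX631 on top of R1881 gave −0.50 ± 0.05 (edgeR FDR 2.02e-11) and the interaction was −0.53 ± 0.06 (edgeR FDR 2.88e-08), both past the FDR limit and under the fold limit.

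MALAT1, which at 72 h had the same order of groups, moved less. At 24 h it was at 555, 637 and 564 CPM in vehicle, 464, 417 and 510 CPM with R1881, 592, 516 and 518 CPM with Senexin B and 435, 370 and 433 CPM with both. The R1881 libraries were below the vehicle libraries, and those with both agents were below the Senexin B libraries. The R1881 effect was −0.33 ± 0.06 without and −0.40 ± 0.06 with Senexin B (edgeR FDR 1.58e-05 and 8.43e-07), both under the fold limit.

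At 72 h MALAT1 was at 700, 745, 719 and 650 CPM in vehicle, 734, 722, 715 and 712 CPM with SNX631, 443, 527, 469 and 584 CPM with R1881 and 404, 370, 382 and 371 CPM with both. R1881 gave −0.49 ± 0.05 without SNX631 (edgeR FDR 4.79e-12) and −0.94 ± 0.05 with it (edgeR FDR 1.97e-20), the latter called. The former was called with scaling by library totals alone (−0.59). SNX631 alone gave 0.03 ± 0.04 (edgeR FDR 0.598), SNX631 on top of R1881 −0.42 ± 0.05 (edgeR FDR 1.41e-09), and the interaction −0.45 ± 0.06 (edgeR FDR 1.95e-06). As for NEAT1, the libraries with both agents were lowest and none overlapped the R1881 libraries. The count ratio of NEAT1 to MALAT1 was 0.198 ± 0.015 with R1881 and 0.186 ± 0.013 with both agents at 72 h (SD, n = 4), with overlapping libraries, against 0.210 ± 0.012 in vehicle.

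**Figure D4:**
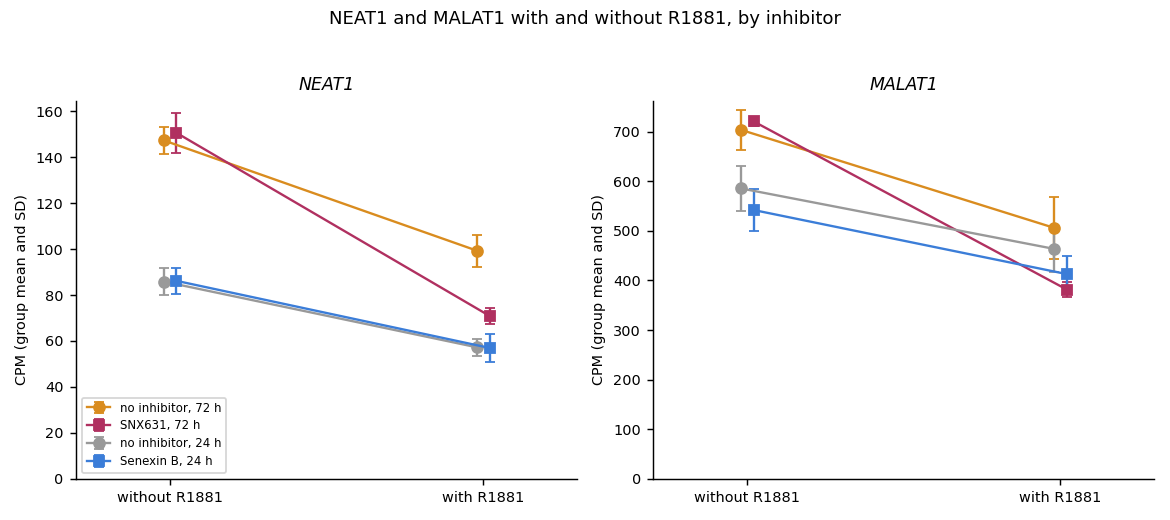
Group mean and SD of NEAT1 and MALAT1 in CPM (vertical axes, from 0) without and with R1881, with lines joining the groups that share an inhibitor (n = 3 at 24 h, n = 4 at 72 h). At 72 h the lines for SNX631 start at the vehicle level and end below the R1881 group, while the 24 h lines of NEAT1 lie on each other.

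No lncRNA was called for either interaction by edgeR or DESeq2 (0 of 6 at 24 h beside 0.577% of all genes and 0 of 7 at 72 h beside 1.19%), with 2 lncRNAs at an unadjusted p under 0.05 in each, PART1 and DRAIC at 24 h and NEAT1 and MALAT1 at 72 h. Of all genes, 4.51% and 12.7% reached an edgeR FDR under 0.05 for these interactions. When SNX631 replicates 1 and 2 were left out, the NEAT1 interaction was −0.60 and was called (edgeR FDR 6.996e-09). NEAT1 had fractional counts in 27 of 28 libraries, and 3 short annotated RNAs and the microRNA gene MIR612 lie inside it on the same strand. One of these short RNAs, ENSG00000277599, was called for the interaction at 72 h (log2 −0.73, edgeR FDR 0.000348), and the same reads may count for it and for NEAT1. TALAM1 fell with R1881 by 3.90 ± 0.79 at 72 h (edgeR FDR 1.20e-07). FRMD8, the nearest protein-coding gene before NEAT1 at 9249 bases, was not called in any comparison, with R1881 values of 0.23 at 24 h and 0.16 at 72 h.

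Paraspeckle proteins bind NEAT1 to form these bodies, and 10 of them, among them NONO, SFPQ, PSPC1 and RBM14, were looked at beside it. Of the 10 tested, 0 were called in any comparison by edgeR or DESeq2. For R1881 at 24 h and 72 h, 58.4% and 62.1% of all genes reached an edgeR FDR under 0.05. Among the 10 paraspeckle proteins, 6 and 8 had an unadjusted p under 0.05 there. Their R1881 values ran from −0.19 (NONO) to 0.51 (RBM14) at 24 h and from −0.14 to 0.40 for the same genes at 72 h, and their medians were 0.08 and 0.14 beside −0.02 and −0.01 over all genes.

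PCAT1 (chromosome 8, 126556323 to 127419050, plus strand), upstream of MYC by 316384 bases, moved with the inhibitors and not past the limits with R1881. At 24 h it was at 6.60, 6.505 and 6.32 CPM in vehicle, 8.74, 8.36 and 9.34 CPM with Senexin B, 5.22, 6.47 and 5.78 CPM with R1881 and 6.01, 9.50 and 8.82 CPM with both. The Senexin B libraries were all above vehicle, while 1 library with both agents lay among the R1881 libraries. Senexin B gave 0.48 ± 0.12 alone (edgeR FDR 0.00257) and 0.48 ± 0.15 on top of R1881 (edgeR FDR 0.0121), under the fold limit. Without R1881 plus Senexin B replicate 1 the second value was 0.64 and was called (edgeR FDR 0.0005897).

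At 72 h PCAT1 was at 5.88, 6.63, 7.69 and 6.41 CPM in vehicle and at 9.11, 8.78, 10.3 and 10.8 CPM with SNX631. With R1881 it was at 4.95, 4.79, 6.36 and 6.26 CPM, and with both agents at 8.85, 10.2, 9.71 and 11.04 CPM. The libraries with SNX631 were above those without it in both settings. The effect was 0.55 ± 0.11 alone, under the fold limit (edgeR FDR 6.96e-05; over it, at 0.62 and 0.60, without vehicle replicate 3 or SNX631 replicate 2), and 0.82 ± 0.11 on top of R1881, called as a 1.76-fold rise (edgeR FDR 1.29e-07). The interaction of 0.27 ± 0.16 was not called (edgeR FDR 0.296), and against a null of a 1.5-fold change the rise was not called either (edgeR FDR 0.386).

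MYC, the growth-promoting transcription factor next to PCAT1, was also higher with the inhibitors. It was at 250, 256 and 262 CPM in vehicle and 367, 396 and 384 CPM with Senexin B at 24 h (log2 0.60 ± 0.03, edgeR FDR 1.53e-15, called), with no overlap. On top of R1881 the values were 0.47 ± 0.03 for Senexin B (edgeR FDR 1.15e-12) and 0.63 ± 0.03 for SNX631 (edgeR FDR 6.75e-21, called), and SNX631 alone gave 0.49 ± 0.03 (edgeR FDR 6.44e-18). PCAT1 spans other annotated genes on both strands and had fractional counts in 19 of 28 libraries. One of them on the opposite strand, LRATD2 (FAM84B in GENCODE 29), was at 100.2 ± 1.6 CPM in vehicle and 156 ± 2 CPM with Senexin B at 24 h (SD, n = 3), a called rise (log2 0.66 ± 0.04, edgeR FDR 1.97e-15). At 72 h it was at 84.4 ± 3.0 CPM in vehicle and 124 ± 3 CPM with SNX631 (SD, n = 4; log2 0.55 ± 0.03, edgeR FDR 9.13e-16), and on top of R1881 the values were 0.56 ± 0.04 for Senexin B (edgeR FDR 1.39e-12) and 0.51 ± 0.04 for SNX631 (edgeR FDR 1.29e-14), these 3 under the fold limit. POU5F1B overlaps PCAT1 on the same strand, and the same reads may count for both. It was at 1.24 CPM in vehicle and 2.04 CPM with Senexin B at 24 h, without a call (edgeR FDR 0.0178). At 72 h it was at 1.37 CPM in vehicle and 2.23 CPM with SNX631, also without a call (edgeR FDR 0.0144). On top of R1881 neither inhibitor gave a POU5F1B call (log2 0.09 and 0.62). The part of strand and of shared reads in the PCAT1 values was not tested.

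**Figure D5:**
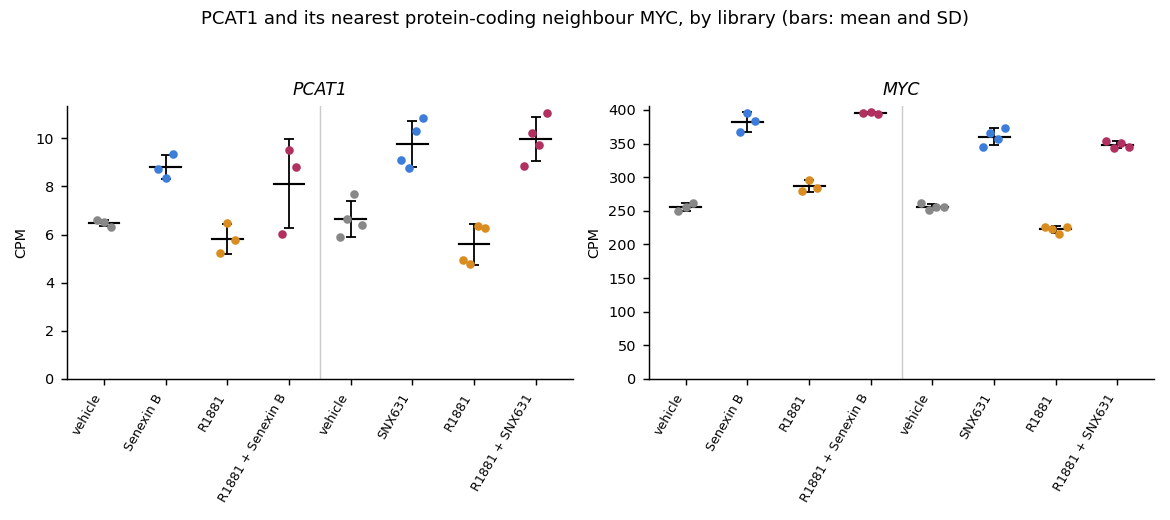
Levels in CPM (vertical axes, from 0) of PCAT1 and MYC by library and group, 24 h to the left and 72 h to the right of the grey line, with bars for the mean and SD. Both were higher in all SNX631 libraries than in their partners without SNX631 at 72 h, and 1 of 3 PCAT1 libraries with R1881 plus Senexin B lay among the R1881 libraries at 24 h.

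The R1881 effect at 72 h against that at 24 h differed with a call for 0 of 7 lncRNAs by edgeR and DESeq2, beside 1.88% of all genes, and 2 had an unadjusted p under 0.05. Of all genes, 7.54% reached an edgeR FDR under 0.01 for this difference. For PART1 the difference was 0.80 ± 0.24 (edgeR FDR 0.0183) and for DRAIC −0.48 ± 0.16 (edgeR FDR 0.0355), each larger at 72 h in its own direction. The PART1 difference was called without R1881 24 h replicate 2, vehicle 72 h replicate 1 or vehicle 72 h replicate 2 (0.91 to 0.96). For NEAT1 it was −0.01 ± 0.08 (edgeR FDR 0.949) although its vehicle level was 85.9 ± 5.8 CPM at 24 h and 147 ± 5.8 CPM at 72 h.

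Other lncRNAs linked to prostate cancer gave a frame for these values. Of 29 listed, 17 were tested in each experiment, and R1881 gave 5 higher and 2 lower calls at 24 h and 5 higher and 3 lower at 72 h (19% and 19.8% of all genes were called), with medians of 0.21 and 0.13 beside −0.02 and −0.01 over all genes. LINC00844 went from 0, 0.0723 and 0 CPM in vehicle to 4.94, 4.85 and 4.12 CPM with R1881 at 24 h, and from at most 0.0763 to between 2.61 and 3.80 CPM at 72 h. POTEF-AS1 rose from 0.159 ± 0.107 to 2.02 ± 0.48 CPM at 72 h, LINC01138 fell from 7.48 ± 1.23 to 2.62 ± 0.46 CPM, and CRNDE fell from 36.1 ± 1.3 to 20.2 ± 1.3 CPM (SD, n = 4), and all 4 were called in both experiments. The 4 were named for the size of their R1881 effects in these data. LINC00844 and POTEF-AS1 held at most 2 and 19 summed counts in any group without R1881. Like PCAT14, they passed the filter on low counts only through the R1881 groups. Their entry already required a difference, and the higher calls of this list include them. Of 18 widely expressed lncRNAs tested, 1 was higher and 0 lower at 24 h, and 1 was higher and 1 lower at 72 h, beside the same shares of all genes, with medians of −0.09 and −0.07.

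Patterns across the 28 libraries were set side by side by Pearson's r of log2 CPM, as a description over libraries that share treatments, with no test. DRAIC, NEAT1 and MALAT1 followed each other (r from 0.845 to 0.870), and PART1 ran against DRAIC (r = −0.799). Among 14903 other genes the nearest patterns to DRAIC were those of ZFTA (0.961) and ZNF24 (0.953). Nearest to PART1 were ENSG00000275634, which lies inside it, (0.982) and MPC2 (0.975). CD24 (0.969) and MEX3A (0.964) were nearest to NEAT1, and ENSG00000230699 (0.957) and AUTS2 (0.949) to MALAT1. NUP43 (0.887) and GTPBP10 (0.881) were nearest to PCAT1, and EWSR1 (0.943) and KPNB1 (0.936) to PCAT14. For PCA3 the nearest were MIR1282 (0.817) and ENSG00000273149 (0.809), lower values than for the other 6 lncRNAs.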

How the data were processed

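RNA was measured in 28 LNCaP libraries from a strand-keeping kit. Per the submitters' processing notes, the authors trimmed reads with cutadapt 2.8, aligned them with STAR 2.7.2b and counted them with featureCounts of Subread 2.0.3, with GRCh38.p13 and GRCm39 named as builds. The strand setting, annotation release and poly(A) selection were not given in the sources used here. The authors deposited expected counts per gene, whole or fractional and not normalized, in which 16.9% of values above 0 had a fraction, and these were rounded. Of the table, 61815 human genes were used and 2 non-human entries, both at 0, were left out.

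Each experiment was fitted over its 4 groups with edgeR 4.0.16 (quasi-likelihood, TMM scaling, the default expression filter at 10 counts per library and 15 in total) in R 4.3.3, with Benjamini-Hochberg adjustment over 15948 genes at 24 h and 16074 at 72 h. The difference of the R1881 effects was fitted over all 28 libraries (16672 genes). The limits were an FDR of 0.01 and a fold change of 1.5. The fit was tested on simulated counts, in which 98.5% (24 h, 15682 genes) and 100% (72 h, 15802 genes) of 200 genes changed by a fold of 2 were recovered for R1881 against vehicle. The changed genes were drawn only from those with higher counts, and all genes were given the same fixed spread. The recovery therefore does not cover lncRNAs with few counts or wide scatter, such as PCAT14 and PCA3. Members and lists were chosen with earlier results of these data known. Besides the members, the text names the 2 highest and 2 lowest list genes by mean R1881 effect among those called in both experiments, the nearest or overlapping genes, and the 2 most similar patterns per tested member, and some of these are not reported here. Positions are from GENCODE 29 (GRCh38), matched by gene ID without version, and promoters from RefSeq (GRCh38.p14). Alternatives were DESeq2 1.42.0 (size factors and Wald test), library totals, 2 other filters, other limits, a replicate block, other sets of libraries and leaving out each library. Same-numbered libraries showed no clear shared deviation, which does not exclude a weak pairing. No pair of replicates agreed within counting noise. P-values measure the spread between these libraries of 1 cell line, and floors and totals cover counting error only.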

Additional observations from a re-analysis of the deposited data

Results flagged for a closer look

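The effect of R1881 at 72 h differed between cells with and without SNX631 for 2 lncRNAs by the test of the difference itself. For NEAT1 the interaction was −0.533 on the log2 scale (edgeR FDR 2.88e-08), between −0.598 and −0.495 over all alternatives, and NEAT1 was lower in all 4 libraries with both agents than in the 4 R1881 libraries. For MALAT1 it was −0.455 (edgeR FDR 1.95e-06), between −0.507 and −0.377, with the same order of libraries. In the main fit both lay under the fold limit of 1.5 and neither was called. The FDR limit alone was passed by 2 of the 7 lncRNAs tested, beside 7.09% of all genes. Of 28 sets of 4 libraries (the tested lncRNAs in each 72 h group) checked for a library far from the others, 0 held one, where chance gives about 1 in 20. The check looks for a single library apart from the rest. It could not flag a split such as that of PCA3 with SNX631, where 2 libraries were near 0. The 24 h groups were not checked.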

How the results depend on the processing

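Of 712 log2 fold changes recomputed under alternatives other than leaving out 1 library, 667 kept their direction and their side of the limits, 45 changed and 11 of these reversed. With 1 library left out, 1054 of 1116 did so and 39 reversed. No called value reversed. The cause of each change was not tested. Counts here include PCAT14 (4 calls for R1881 at 72 h and 5 under SNX631). Without the filter on low counts, 5 lncRNAs instead of 3 were called for R1881 under Senexin B (ARLNC1 and PCA3 gained; 10.2% of all genes), 5 instead of 4 for R1881 at 72 h (ARLNC1; 11.1%), 7 instead of 5 under SNX631 (ARLNC1 and PCA3; 12.2%), 1 instead of 0 for SNX631 (PCA3; 2.63%) and 1 instead of 0 for the difference of R1881 effects (PART1; 1% of all genes). The PCA3 gains without the filter came at nearly the same values with smaller standard errors. With the FDR limit at 0.05 and the fold limit dropped, the counts were 5 for R1881 at 24 h (58.4% of all genes), 4 under Senexin B (57.4%), 2 for Senexin B (35.8%), 3 for Senexin B on top of R1881 (33%) and 1 for the 24 h interaction (4.51%). At 72 h they were 6 for R1881 (62.1%), 5 under SNX631 (65.7%), 1 for SNX631 (36.5%), 4 for SNX631 on top of R1881 (42.8%) and 2 for the interaction (12.7%). Tested against a fold change of 1.5, both inhibitors on top of R1881 gave 0 (0.589% and 0.871% of all genes). All 28 libraries in 1 fit gave 2 for Senexin B on top of R1881 (3.08%) and lost PCA3 for R1881 at 24 h. The added call was PCAT14, which entered this fit through its 72 h R1881 groups. It rested on 21 counts with R1881 and 5 with both agents at 24 h. Library totals gave 4 for R1881 at 24 h (NEAT1 gained, −0.64), beside 19.9% of all genes, and 6 at 72 h (NEAT1 and MALAT1 gained), beside 21.3%. Leaving out SNX631 replicates 1 and 2, chosen after seeing the data, gave 1 for SNX631 (4.01%) and 1 for the 72 h interaction (1.03%).

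Leaving out each library in turn gave 3 to 4 calls for R1881 at 24 h, 2 to 3 for R1881 under Senexin B, 0 to 0 for Senexin B, 1 to 2 for Senexin B on top of R1881 and 0 to 1 for the 24 h interaction. It gave 3 to 5 calls for R1881 at 72 h, 5 to 5 for R1881 under SNX631, 0 to 1 for SNX631, 1 to 1 for SNX631 on top of R1881, 0 to 0 for the 72 h interaction and 0 to 1 for the difference of R1881 effects. The shares of all genes are given above for the fits with every library.

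None of the values that reversed was called. NEAT1 with Senexin B on top of R1881 was −0.02982 with library totals, −0.0001788 without the filter, −0.004742 with a filter of 1 CPM and −0.007835 with only the groups compared. PCAT1 for R1881 under SNX631 was −0.1031 with totals, −0.004123 with only the groups compared and −0.1145 without SNX631 replicates 1 and 2, where the PCA3 interaction was −0.406. Without the filter the PCAT1 24 h interaction was 0.0007089 and the NEAT1 difference of R1881 effects 0.007868, and with totals PCAT14 with SNX631 was −0.01554. With 1 library left out, PCAT1 ranged from −0.2471 to 0.03425 for R1881 under Senexin B, from −0.04837 to 0.05877 for R1881 under SNX631 and from −0.1181 to 0.156 for the 24 h interaction. NEAT1 ranged from −0.08457 to 0.07587 with Senexin B on top of R1881, from −0.1276 to 0.03232 for the 24 h interaction, from −0.005163 to 0.05851 with SNX631 and from −0.07244 to 0.02855 for the difference of R1881 effects. MALAT1 ranged from −0.162 to 0.001018 for the 24 h interaction and from −0.003249 to 0.05756 with SNX631. PCA3 ranged from −0.6241 to 0.2199 with Senexin B and from −0.4218 to 0.401 for the difference of R1881 effects. PCAT14 ranged from −0.3238 to 0.1951 with SNX631 and from −0.3924 to 0.1267 for the 72 h interaction.

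A fit with the replicate number as a block gave 3, 3, 0, 1 and 0 calls at 24 h and 4, 5, 0, 1 and 0 at 72 h, in the order used above, as without the block. The shares of all genes were 18.9%, 19%, 3.84%, 3.15% and 0.633% at 24 h. At 72 h these shares were 19.7%, 22%, 4.75%, 4.11% and 1.17%. Same-numbered libraries had correlations of their deviations between −0.074 and 0.073. Their median was 0.0285 at 24 h, against −0.01355 for libraries of different numbers, and −0.006313 against 0.0013 at 72 h. No clear pairing was seen, which does not exclude a weak one. Library totals in place of TMM moved the median of all genes by −0.08 and −0.07 in the 2 R1881 comparisons at 24 h, and by −0.10 and −0.11 in those at 72 h. Depth limits PCGEM1, ARLNC1 and, at 24 h, PCAT14, of which most libraries held few counts.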
